A study of Homo sapiens with 20 samples.

Results

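JinB8 T lymphoblasts, which lack CD47 on their surface, were compared with the parental WT Jurkat T lymphoblasts after 6 h of culture. The comparison used the 3 JinB8 libraries and the 3 Jurkat libraries labelled 6 h, 6 of the 20 libraries of the series, paired by treatment. Jurkat is a human T cell leukemia line, and JinB8 is a somatic mutant of it, a single mutant line that is called CD47- below, so the loss of CD47 and any other difference that the line carries cannot be told apart. Cells were plated in the serum-free medium HITES on dishes coated with antibodies to CD3 and CD28 (CD3+CD28), on the same coating with thrombospondin-1 added (CD3+CD28+TSP1), or with thrombospondin-1 alone (TSP1). The dose of TSP1 was 1 μg/mL and the coating used 4 μg/mL of anti-CD28. The labels and the study's methods give different concentrations for anti-CD3. No untreated cells were sequenced at 6 h, so each 6 h library saw antibodies, TSP1 or both. Each line was sequenced once per treatment, and no source says that the libraries came from separate cultures, so the p-values below measure only the spread between these libraries.

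CD47 is a ubiquitous cell surface protein. It is a signaling receptor for TSP1, a glycoprotein secreted by platelets and many other cells, and it is the counter-receptor for SIRPα, through which it tells phagocytes not to engulf a cell. In T cells TSP1 acting through CD47 limits signaling from the T cell receptor. Unfolded proteins in the endoplasmic reticulum activate the sensors IRE1, PERK and ATF6, and the resulting factors XBP1 and ATF6 turn on chaperone genes. Shortage of amino acids and PERK both raise translation of the factor ATF4, which turns on amino acid synthesis and import.

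Values are given as CPM, the share of a library that a gene takes, with library sizes scaled by the TMM method over the 6 libraries, and are listed in the order CD3+CD28, CD3+CD28+TSP1 and TSP1. Differences are log2 fold changes of CD47- relative to WT cells with their standard errors (SE), tested by the edgeR quasi-likelihood test with treatment as a term and with Benjamini-Hochberg adjustment over the genes tested. A gene was called at an adjusted p under 0.05. The 6 libraries held from 22995477 to 31737616 gene counts (medians 25931325 for WT and 23211256 for CD47-), so 3 counts correspond to between 0.0958 and 0.130 CPM. Mitochondrial genes took between 0.380% and 0.423% of counts in WT and between 0.339% and 0.510% in CD47- libraries. Across all genes tested the Pearson correlation of log2 CPM lay between 0.9934 and 0.9945 for libraries of the same line and between 0.9578 and 0.9597 for libraries of different lines.

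The T cell identity of both lines was checked against 10 markers, all of which were detected, and their summed level was between 2550 and 2643 CPM in WT and between 2602 and 2643 CPM in CD47- cells. Single markers differed nonetheless, with 5 higher and 4 lower in CD47- cells, among them CD2 at 46.7 to 49.7 CPM in WT and 134 to 141 CPM in CD47- cells. Summed B cell markers were at 63.0 to 72.1 CPM in WT and 13.9 to 16.04 CPM in CD47- cells, and summed myeloid markers were under 2.41 CPM in every library. A different set of transcripts separated the libraries across the lines. THBS1, the gene of TSP1 itself, was at 0.301, 0.639 and 6.73 CPM in WT cells and at 9.12, 9.54 and 0.173 CPM in CD47- cells. The collagen gene COL1A2 was at 0, 0 and 1.251 CPM in WT and 1.13, 1.60 and 0 CPM in CD47- cells. The matrix metalloproteinase gene MMP1 and the BMP antagonist gene GREM1 were likewise higher in the WT library with TSP1 and in both CD47- libraries with antibodies than in the other 3 libraries. Over all 20 libraries the sum of these 4 genes was between 10.9 and 16.7 CPM in 9 libraries of both lines and at most 1.76 CPM in the other 11. The split followed line and time in part, since 6 of 7 WT and none of 7 CD47- libraries were high at 1 h and 3 h, against 1 of 3 WT and 2 of 3 CD47- libraries at 6 h. These genes are typical of mesenchymal cells. Of 6 markers of fibroblasts and mesenchymal cells, 3 were tested and 2 of them, COL1A1 and PDGFRB, followed the line and not this split. COL1A1 was at 1.29, 1.76 and 1.92 CPM in WT and 4.91, 5.37 and 4.33 CPM in CD47- cells, and PDGFRB at 0.558, 0.671 and 0.469 CPM against 3.39, 4.17 and 3.12 CPM. Other markers of the 6 followed the split, namely COL1A2 and, at low levels, LUM and COL3A1. LUM was at 0, 0 and 0.391 CPM in WT and 0.174, 0.842 and 0 CPM in CD47- cells. COL3A1 was at 0, 0 and 0.156 CPM against 0.0869, 0.401 and 0 CPM. DCN was at 0, 0 and 0.235 CPM against 0.304, 0.441 and 0.130 CPM. The sum of the 6 markers was between 1.85 and 4.42 CPM in WT and between 7.59 and 12.8 CPM in CD47- cells. A term for the 3 libraries of the split at 6 h left 9415 genes called between the lines in place of 9768. It does not separate the line from the markers that follow the line, and their part in the differences between the lines was not tested.

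At 6 h the lines differed in a large part of the transcriptome. Of 60719 annotated genes 16556 were tested and 9768 were called (59%), of which 4915 were higher in CD47- cells (29.7%) and 4853 were lower (29.3%). The median log2 fold change over all genes tested was 0.0061, and 5424 of the called genes differed by less than 1.5-fold. At least a 2-fold difference was found for 2418 called genes (14.6%), 1507 of them higher (9.1%) and 911 lower (5.5%). More than 4-fold differences were found for 862 genes and more than 16-fold for 204. Of the called genes 9734 moved the same way in all 3 pairs, and the values of the lines did not overlap for 10760 genes (65%). With 59% of genes called, a call for a single gene says little about it, and group counts below are set against 29.7% higher and 29.3% lower. They cover the members of a list that passed the low-count filter. Apart from the cancer-testis antigens, the smallest shares passed for checkpoint genes (16 of 28) and cyclic nucleotide and nitric oxide genes (21 of 34). Some members passed only through the line in which they are high, so the filter set their direction. Examples are SIRPA and NECTIN2 for CD47- cells and HOXA10, CD86, DERL3, PREX2 and CYP51A1 for WT cells. The group counts include such members.

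CD47 mRNA was present in both lines. The gene (chromosome 3 of GRCh38, 108043091 to 108091862) was at 305, 287 and 321 CPM in WT and 142, 139 and 143 CPM in CD47- cells. The groups did not overlap, and the log2 fold change was −1.10 (SE 0.0418, adjusted p = 2.82e-07). The transcript was therefore reduced but detected in the mutant line, and the difference was of like size at 1 h (−1.17) and 3 h (−0.97).

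Of the genes that the study follows in these cells, some differed widely between the lines at every treatment and others little. TNF (chromosome 6, 31575565 to 31578336), the inflammatory cytokine, was at 0.859, 0.894 and 0.587 CPM in WT and 10.6, 11.3 and 10.8 CPM in CD47- cells (log2 fold change 3.79, SE 0.159, adjusted p = 4.83e-07). PREX1, an exchange factor for the GTPase Rac, was at 13.3, 13.9 and 12.2 CPM in WT and 34.6, 35.4 and 34.8 CPM in CD47- cells (1.41, SE 0.0732, adjusted p = 1.45e-06). In both cases all CD47- libraries were above all WT libraries whatever the treatment. CCR9, the receptor that guides T cells to the gut and thymus, was lower at 0.652, 0.762 and 0.650 CPM against 4.08, 3.03 and 3.09 CPM (−2.28, SE 0.232, adjusted p = 6.15e-05). RAG1 (chromosome 11, 36510372 to 36593156), the nuclease that cuts antigen receptor genes, was at 553, 489 and 545 CPM in WT and 9.99, 10.2 and 10.7 CPM in CD47- cells (−5.68, SE 0.0587, adjusted p = 7.38e-10). Its partner RAG2, beside it on chromosome 11, was at 96.9, 86.9 and 97.6 CPM against 4.74, 4.21 and 3.86 CPM (−4.45). WT RAG1 was at 208 to 354 CPM at 1 h and 500 to 565 CPM at 6 h on the scale of all 20 libraries, while CD47- cells remained between 5.73 and 10.9 CPM over the 3 time points.

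The survival gene MCL1 was slightly lower in CD47- cells, at 195, 184 and 188 CPM against 245, 263 and 234 CPM (−0.39, SE 0.0493, adjusted p = 0.00022), a smaller difference than the −1.24 fitted at 1 h. CD40LG, the T cell ligand that licenses B cells, was at 12.6, 13.6 and 13.96 CPM in WT and 15.5, 14.2 and 15.99 CPM in CD47- cells and did not pass the test (0.18, adjusted p = 0.0811). The checkpoint receptor TIGIT had 1 to 4 counts per library and was not tested. IL7R, the receptor chain for the survival cytokine interleukin-7, was at 57.5, 60.2 and 57.9 CPM in WT and 9.65, 9.10 and 9.49 CPM in CD47- cells (−2.64, SE 0.0627, adjusted p = 3.06e-08). The activation marker CD69 was uneven in WT cells at 33.8, 54.9 and 19.9 CPM, with the TSP1 library lowest, and was at 8.04, 5.33 and 6.76 CPM in CD47- cells (−2.34, SE 0.28, adjusted p = 0.00016).

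**Figure D1:**
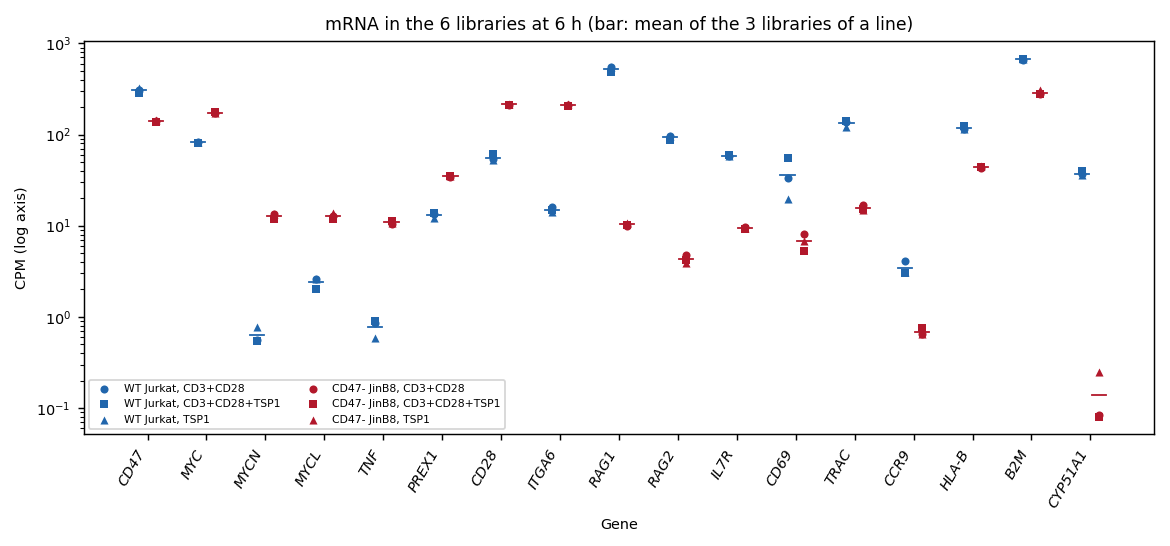
Level of 17 named genes at 6 h in TMM-scaled CPM on a log axis, with 1 point per library, colour by line, shape by treatment and a bar at the mean of the 3 libraries of a line. TNF, PREX1, CD28, ITGA6 and the MYC family lie higher in the 3 CD47- libraries, RAG1, RAG2, CCR9, IL7R, TRAC and CYP51A1 lie lower, and no gene drawn overlaps between the lines.

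The difference between the lines in chaperone genes of the endoplasmic reticulum changed with time. Their promoters, of 250 bases before the transcription start, are given here for 4 of them because the difference between the lines in these genes was of another size or sign at 6 h and because they carry the ER stress response element, a CCAAT and a CCACG separated by 9 bases to which ATF6 and XBP1 are known to bind. Sequences are from RefSeq (GRCh38.p14) and are read 5′ to 3′ on the strand of the gene, with the motif on either strand in capitals. The intervals are chr12:103930160-103930409 on the plus strand for HSP90B1, chr9:125241344-125241593 on the minus strand for HSPA5, chr19:12938359-12938608 on the plus strand for CALR and chr22:28800570-28800819 on the minus strand for XBP1.
HSP90B1: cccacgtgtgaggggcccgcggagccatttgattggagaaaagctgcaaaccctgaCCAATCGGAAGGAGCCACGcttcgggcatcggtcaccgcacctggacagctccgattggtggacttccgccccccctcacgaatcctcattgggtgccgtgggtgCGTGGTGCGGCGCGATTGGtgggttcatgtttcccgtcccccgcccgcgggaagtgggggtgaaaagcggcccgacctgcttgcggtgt
HSPA5: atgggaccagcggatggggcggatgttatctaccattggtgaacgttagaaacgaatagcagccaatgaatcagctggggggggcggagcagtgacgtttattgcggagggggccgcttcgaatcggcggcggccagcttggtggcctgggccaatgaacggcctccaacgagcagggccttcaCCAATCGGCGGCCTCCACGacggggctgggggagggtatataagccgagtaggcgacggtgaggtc
CALR: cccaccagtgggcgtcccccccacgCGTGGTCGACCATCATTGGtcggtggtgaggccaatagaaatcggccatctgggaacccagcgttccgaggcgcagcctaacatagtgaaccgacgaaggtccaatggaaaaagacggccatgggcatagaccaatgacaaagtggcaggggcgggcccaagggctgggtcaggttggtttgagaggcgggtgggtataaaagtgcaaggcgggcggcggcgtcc
XBP1: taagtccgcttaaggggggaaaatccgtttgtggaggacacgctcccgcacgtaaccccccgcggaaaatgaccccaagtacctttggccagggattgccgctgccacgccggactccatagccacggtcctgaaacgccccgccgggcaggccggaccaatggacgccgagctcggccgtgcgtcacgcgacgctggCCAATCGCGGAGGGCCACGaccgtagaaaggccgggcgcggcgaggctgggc
HSP90B1 has 2 matches, whose first bases lie 194 and 89 bases before the start, and the single matches lie at 66 bases in HSPA5, 225 bases in CALR and 52 bases in XBP1. The letters searched were CCAAT, any 9 bases and CCACG on both strands in a window from 250 bases before to 50 bases after the start, and this motif contains the CCAAT motif counted further below. They occurred in 17 of the 10773 tested genes with a promoter sequence (0.158%). On a list of 32 genes of endoplasmic reticulum folding and the unfolded protein response, 7 of 29 with a sequence held the motif (24.1%). They were HSPA5, HSP90B1, CALR, CANX, CRELD2, XBP1 and ERO1B. All 7 were lower in CD47- cells at 6 h, as were 26 of the 32 list members. No gene of the lists for amino acid supply, ribosome biogenesis or mitosis held the motif. A match describes the letters and does not show that a factor was bound. Whether the motif goes with the difference between the lines was not tested.

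This list was drawn up after the values of its leading members had been seen, so its counts are a description. At 6 h 26 of its 32 members were lower in CD47- cells and 2 were higher, with a median log2 fold change of −0.76, whereas the median of the same genes was 0.31 at 1 h and 0.09 at 3 h. HSP90B1, the endoplasmic reticulum form of HSP90, was at 1816, 1888 and 1798 CPM in WT and 426, 401 and 435 CPM in CD47- cells (−2.13, SE 0.0435, adjusted p = 1.75e-08). The log2 fold change was 0.43 at 1 h and −0.04 at 3 h. HSPA5 (BiP), the HSP70 chaperone that also holds the stress sensors inactive, was at 708, 805 and 702 CPM in WT and 238, 252 and 242 CPM in CD47- cells (−1.60, SE 0.0424, adjusted p = 4.78e-08). At 1 h and 3 h HSPA5 had been higher in CD47- cells, by 0.68 and 0.69. On the scale of all 20 libraries HSPA5 in WT cells was at 170 to 185 CPM at 1 h, 123 to 176 CPM at 3 h and 717 to 823 CPM at 6 h, and in CD47- cells at 271 to 296, 224 to 300 and 241 to 255 CPM. HSP90B1 in WT cells was at 395 to 438 CPM at 1 h and 1837 to 1929 CPM at 6 h, and in CD47- cells at 531 to 598 and 407 to 441 CPM. The WT library with TSP1 alone was at 1798 CPM for HSP90B1 at 6 h on the scale of the 6 libraries, close to both libraries with antibodies.

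Other members of the folding machinery were lower at 6 h with various earlier differences. The lectin chaperone gene CALR was at 996, 991 and 949 CPM in WT and 428, 420 and 430 CPM in CD47- cells (−1.20). MANF, a small protein secreted under endoplasmic reticulum stress, was at 178, 188 and 179 CPM against 66.0, 65.3 and 65.9 CPM (−1.47). Of the protein disulfide isomerases, PDIA3, PDIA4 and PDIA6 were lower by 1.07, 0.97 and 0.83 on the log2 scale. Differences below −1 were also found for SDF2L1 (−1.51), CRELD2 (−1.17), DNAJB11 (−1.09) and DDIT3 (−1.03), the last of which encodes the stress factor CHOP. On the scale of all libraries the mean of DDIT3 in WT cells was 51.1 CPM at 1 h and 37.8 CPM at 6 h, and in CD47- cells 48.9 and 18.4 CPM. DERL3 and HERPUD1, of the degradation of misfolded proteins, were lower at every time. DERL3 had the largest log2 fold change of the list at 6 h (−3.81, SE 0.316, adjusted p = 1.92e-05), from 72, 96 and 74 counts in WT and 6, 3 and 6 counts in CD47- libraries, after −3.19 at 1 h and −2.35 at 3 h. HERPUD1 was at −1.31, after −1.52 at 1 h and −0.57 at 3 h, and its mean in WT cells was 171 CPM at 1 h and 139 CPM at 6 h. The interaction with time described in the next paragraph was not called for either gene (−1.04 for DERL3, adjusted p = 0.186, and −0.23 for HERPUD1, adjusted p = 0.100). XBP1 changed sides: it was higher in CD47- cells at 1 h (1.13) and 3 h (1.09) and lower at 6 h, with 97.8, 97.3 and 100 CPM against 175, 178 and 173 CPM in WT cells (−0.83, SE 0.038, adjusted p = 7.64e-07). TXNDC5 (0.71) and WFS1 (0.44) were the 2 higher members, WFS1 not without the CD3+CD28+TSP1 pair. The sensor genes differed little, with ATF6 at −0.12 (not called without the CD3+CD28 pair), EIF2AK3 (PERK) at −0.26 and ERN1 (IRE1) at 0.20, the last not called. The translocation genes SEC61A1, SSR1 and SPCS3 did not pass the test, with log2 fold changes of 0.013, 0.023 and −0.015.

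Whether the line difference at 6 h was of another size than at 1 h and 3 h was tested as an interaction in a model of all 20 libraries, against the mean of the earlier differences. The test called 2667 of 16327 genes (16.3%), 1083 in the higher (6.63%) and 1584 in the lower direction (9.7%). Of the endoplasmic reticulum list 22 of 32 members were called lower and 1 higher. The interaction was −2.35 for HSP90B1 (SE 0.118, adjusted p = 9.79e-08), −2.29 for HSPA5, −1.94 for XBP1, −1.92 for SDF2L1, −1.72 for PDIA4 and −1.70 for MANF. The total number of calls moved with single libraries. It was 1369 without the WT CD3+CD28+TSP1 library at 6 h, 1607 without WT CD3+CD28, 1441 without CD47- TSP1, 1765 without CD47- CD3+CD28 and 1746 without CD47- CD3+CD28+TSP1, and no gene called in both fits changed direction. The lower calls were 2439 when the CD47- CD3+CD28+TSP1 library at 3 h was left out. With a term for the 9 libraries high in THBS1 and the other 3 transcripts, chosen after seeing the data, 682 genes were called, 237 higher and 445 lower. Of the endoplasmic reticulum list 17 of 32 were then lower and 1 higher, of the amino acid list 16 of 29 were higher and 2 lower, and of the mitosis list 14 of 30 were lower. With the term the interaction was −2.34 for HSP90B1, −2.26 for HSPA5, 2.81 for SLC7A11 and −1.21 for CCNB2, all of them called. The study corrected for a batch that is not named in the sources used here, so a batch that coincides with line and time and the time course itself cannot be told apart.

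**Figure D2:**
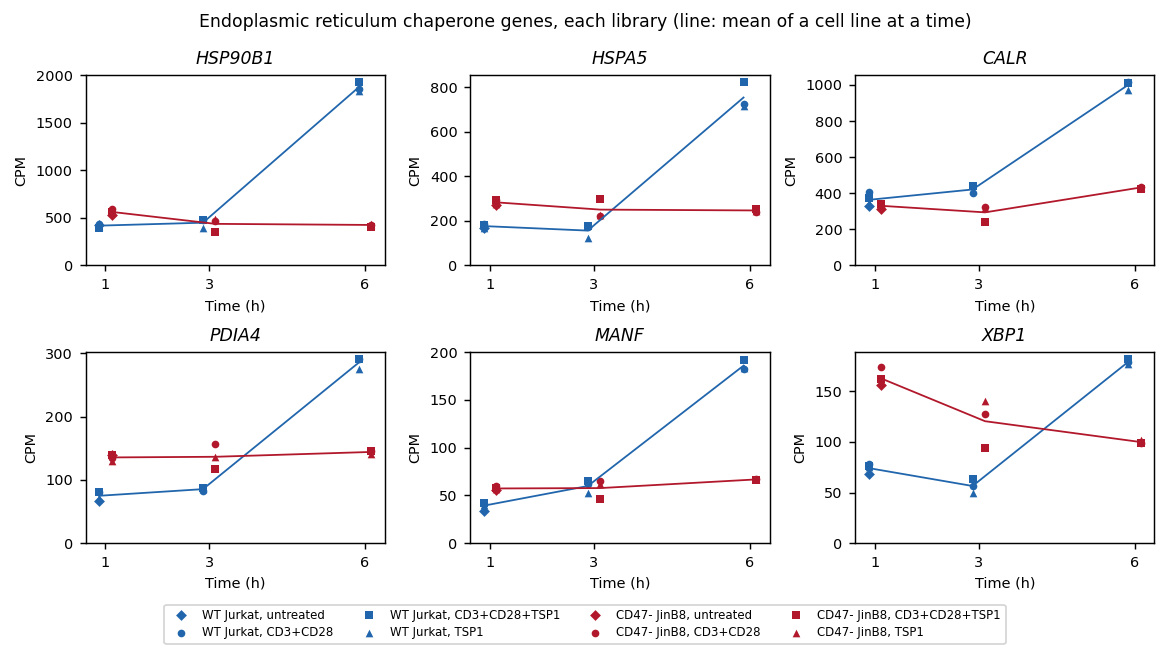
Levels of 6 endoplasmic reticulum genes by time in h, in CPM scaled over 20 libraries on a linear axis, with 1 point per library, colour by line, shape by treatment and a line through the mean of a cell line at each time. For HSPA5 the WT points at 6 h (717 to 823 CPM) lie above all other points, and the CD47- points at 6 h (241 to 255 CPM) lie above 2 of the CD47- points at 3 h (224 and 229 CPM) and below the third (300.2 CPM), from the library with the lowest total count.

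The line difference in genes of amino acid supply changed in the opposite direction. Many of them are targets of ATF4, which binds the CEBP-ATF response element. The promoters of ASNS (chr7:97872409-97872658, minus strand) and CHAC1 (chr15:40953221-40953470, plus strand) are given because both genes were higher in CD47- cells at 6 h and hold the letters TGATGNAA, shown in capitals on the strand where they read forward or in reverse.
ASNS: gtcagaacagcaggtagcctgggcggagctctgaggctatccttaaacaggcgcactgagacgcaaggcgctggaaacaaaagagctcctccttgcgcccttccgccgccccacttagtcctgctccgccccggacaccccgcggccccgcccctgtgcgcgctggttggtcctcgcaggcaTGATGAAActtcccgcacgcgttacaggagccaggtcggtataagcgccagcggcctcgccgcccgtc
CHAC1: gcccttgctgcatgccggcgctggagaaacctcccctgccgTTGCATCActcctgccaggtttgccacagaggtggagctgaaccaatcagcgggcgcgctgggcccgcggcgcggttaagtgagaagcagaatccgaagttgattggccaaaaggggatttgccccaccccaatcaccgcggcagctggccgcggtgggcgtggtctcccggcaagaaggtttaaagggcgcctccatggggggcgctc
The match begins 68 bases before the start in ASNS and 209 bases before it, on the opposite strand, in CHAC1. These letters occurred, on either strand of the 300-base window, in 185 of 10773 tested genes (1.72%). On the amino acid list 5 of 26 genes with a sequence held them (19.2%), namely CHAC1, ASNS, SLC3A2, SLC7A1 and SLC38A1. All 5 were higher in CD47- cells, as were 26 of the 30 list members tested. On the endoplasmic reticulum list 1 of 29 held the letters, and on the mitosis list 1 of 26. Whether the letters go with the difference between the lines was not tested.

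Of 30 genes tested on a list of ATF4 targets, serine synthesis and amino acid transport, 26 were higher in CD47- cells at 6 h and 3 were lower, with a median log2 fold change of 0.97. The median was −0.05 at 1 h and 0.44 at 3 h. The time interaction was called higher for 21 of 29 members and lower for 3. SLC7A11 (chromosome 4, 138164097 to 138242349), the cystine importer, was at 21.9, 20.5 and 22.4 CPM in WT and 202, 183 and 234 CPM in CD47- cells (3.25, SE 0.0517, adjusted p = 7.02e-09). At 1 h the lines overlapped, at 60.5 to 83.4 CPM in WT and 61.5 to 65.9 CPM in CD47- cells. At 3 h they were at 82.8 to 105.3 and 185 to 213 CPM, and at 6 h WT cells were at 21.0 to 22.9 CPM and CD47- cells at 186 to 237 CPM. The interaction of SLC7A11 was 2.72 (SE 0.106, adjusted p = 9.62e-09).

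Enzymes of serine and one-carbon metabolism and of the synthesis of other amino acids were also higher at 6 h, after various differences at 1 h. PSAT1, which makes phosphoserine, was at 67.1, 69.8 and 73.0 CPM in WT and 259, 253 and 251 CPM in CD47- cells (1.86, SE 0.0451, adjusted p = 3.33e-08). On the scale of all libraries WT PSAT1 was at 159 to 178 CPM at 1 h and 68.6 to 74.6 CPM at 6 h, while CD47- PSAT1 was at 168 to 179 CPM and 255 to 262 CPM. PHGDH, the first enzyme of serine synthesis, was at 85.7, 80.5 and 77.3 CPM against 148, 155 and 154 CPM (0.91). The mitochondrial folate enzyme MTHFD2 was at 227, 216 and 240 CPM against 729, 703 and 744 CPM (1.67), and cystathionine beta-synthase (CBS), of the transsulfuration pathway, at 12.8, 11.7 and 12.4 CPM against 63.2, 62.0 and 61.8 CPM (2.34). Asparagine synthetase (ASNS) was at 13.6, 13.5 and 16.1 CPM against 49.3, 46.4 and 50.9 CPM (1.76). For each of these genes the lowest CD47- library was above the highest WT library at 6 h. At 1 h CBS (0.76), ASNS (0.61) and MTHFD2 (0.18) were already higher in CD47- cells, PHGDH was lower (−0.26) and PSAT1 was not called (0.07). On the scale of all libraries mean MTHFD2 was 653 CPM at 1 h and 233 CPM at 6 h in WT cells, and 740 and 735 CPM in CD47- cells. ASNS fell in both lines, from 47.7 to 14.7 CPM in WT and from 72.5 to 49.5 CPM in CD47- cells. In WT cells CBS fell from 19.3 to 12.6 CPM and PHGDH from 150 to 83.0 CPM. In CD47- cells CBS rose from 32.7 to 63.2 CPM and PHGDH from 126 to 155 CPM. The neutral amino acid transporter SLC1A5 (1.90), the glycine transporter SLC6A9 (2.84) and the glutathione-degrading enzyme CHAC1 (2.18) were also higher, and STC2, a secreted glycoprotein, was higher by 2.14. GPT2, an alanine transaminase outside the list, had one of the 5 smallest p-values of the interaction in this direction and was at 5.20, 5.14 and 4.85 CPM against 26.2, 25.9 and 25.6 CPM (2.35).

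ATF4 mRNA itself was at 388, 399 and 399 CPM in WT and 635, 659 and 665 CPM in CD47- cells (0.72, SE 0.0357, adjusted p = 1.13e-06), after differences of −0.18 at 1 h and −0.10 at 3 h. On the scale of all libraries mean ATF4 in WT cells fell from 770 CPM at 1 h to 613 CPM at 3 h and 404 CPM at 6 h. In CD47- cells it was 677, 579 and 662 CPM. The list was not uniform. DDIT3, SLC38A2 and DDIT4 were lower, by 1.03, 0.43 and 0.22 on the log2 scale, and ALDH1L2 was not called (0.18). TRIB3, the gene of a pseudokinase induced by ATF4 and CHOP, was higher at 6 h (1.20) but by less than at 1 h (1.85) and 3 h (1.96), and its interaction was −0.68. Values of CPM measure mRNA, and ATF4 is controlled in large part at translation, which was not measured.

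**Figure D3:**
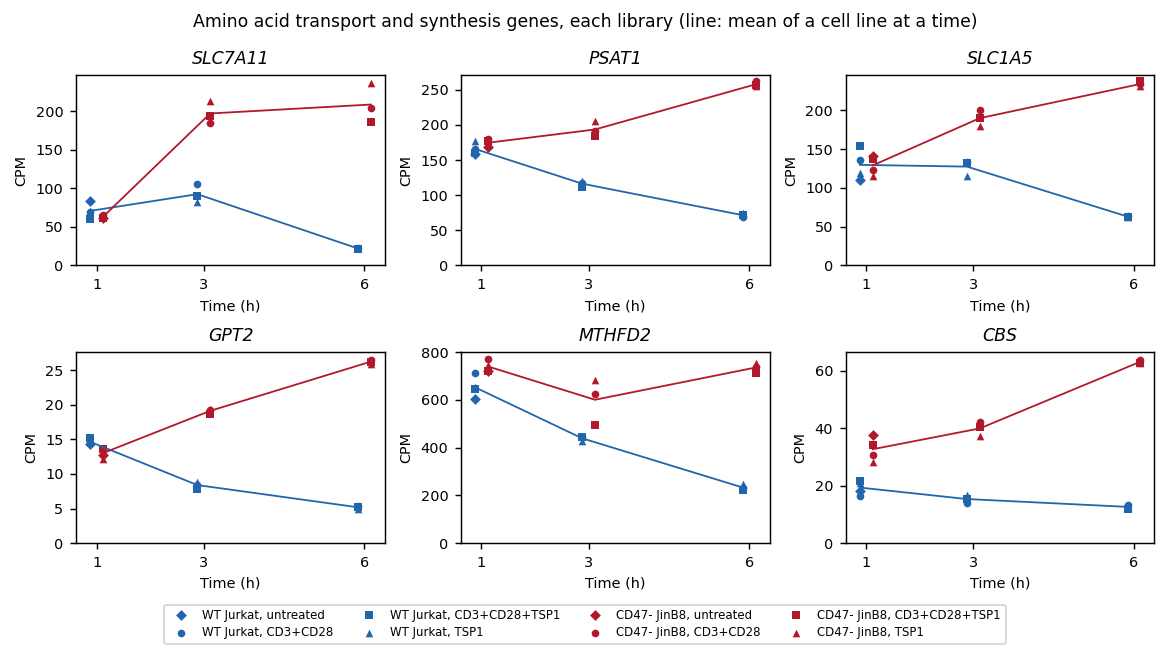
Levels of 6 genes of amino acid supply by time in h, in CPM scaled over 20 libraries on a linear axis, with 1 point per library, colour by line, shape by treatment and a line through the mean of a cell line at each time. For SLC7A11 and PSAT1 the WT and CD47- points lie close together at 1 h and are apart at 6 h.

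Genes of cell division were lower in CD47- cells. The promoter of CCNB2 (chr15:59104896-59105145, plus strand), the gene of cyclin B2, is shown as an example because it holds the cell cycle homology region TTTGAA, in capitals, close to its start, with its first base 29 bases before it. Such elements, often with upstream CCAAT boxes, are known from genes expressed in G2 and mitosis.
CCNB2: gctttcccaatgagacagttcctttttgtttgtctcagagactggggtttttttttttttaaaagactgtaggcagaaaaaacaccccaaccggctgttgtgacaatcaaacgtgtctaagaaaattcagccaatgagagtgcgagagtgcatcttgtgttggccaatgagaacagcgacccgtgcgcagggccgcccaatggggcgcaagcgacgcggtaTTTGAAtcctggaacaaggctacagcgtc
TTTGAA occurred on either strand in 17 of 26 mitosis genes with a sequence (65.4%) and in 1065 of all 10773 (9.89%). CCAAT occurred in 20 of the 26 (76.9%), in 25 of 29 genes of the endoplasmic reticulum list (86.2%) and in 4022 of all (37.3%).

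Of 30 mitosis genes tested, 29 were lower in CD47- cells at 6 h and none was higher, with a median log2 fold change of −0.86 against −0.20 at 1 h and −0.43 at 3 h. The remaining gene, HMMR, was at 0.01. CCNB2 was at 151, 152 and 154 CPM in WT and 58.5, 58.7 and 58.8 CPM in CD47- cells (−1.37, SE 0.0335, adjusted p = 3.37e-08). The interaction for CCNB2 was −1.16 (adjusted p = 6.85e-06). TOP2A, the topoisomerase that untangles chromosomes, was at 1238, 1222 and 1265 CPM against 474, 447 and 503 CPM (−1.39), and NUSAP1, a spindle protein, at 330, 320 and 330 CPM against 123, 111 and 117 CPM (−1.48). On the scale of all libraries TOP2A in CD47- cells was at 934 to 1036 CPM at 1 h and 454 to 511 CPM at 6 h. The proliferation marker MKI67 was lower by 1.10 and the kinase genes AURKB and PLK1 by 1.00 and 0.62. For 21 mitosis genes the interaction was called lower and for none higher. The number of lower calls stayed at 29 whichever library or pair was left out.

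DNA replication genes were lower to a smaller degree and with little change over time. Of 34 tested 23 were lower and 4 higher, with medians of −0.33 at 6 h, −0.34 at 1 h and −0.36 at 3 h. Without the TSP1 pair 1 was higher and 23 were lower. POLA1, the catalytic subunit of the polymerase that starts new strands, was at 83.5, 75.7 and 83.4 CPM in WT and 37.9, 42.3 and 38.2 CPM in CD47- cells (−1.03). The ribonucleotide reductase subunit RRM2 was at 352, 372 and 361 CPM against 209, 215 and 207 CPM (−0.78). Among the MCM genes MCM4 and MCM10 were lower, MCM3 and MCM6 were slightly higher (0.19 and 0.11), and MCM2, MCM5 and MCM7 were not called. Of 61 replication-dependent histone genes 48 were lower and none was higher, with a median of −0.39. Many of these lack poly(A) tails and are recovered poorly by a library selected for poly(A), and their copies share reads, so their levels are uncertain.

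Genes that control entry into the cell cycle were mixed. Of 17 CDK inhibitor, G1 cyclin and checkpoint genes 7 were higher and 8 were lower. CDK6 (chromosome 7, 92604921 to 92836573), the G1 kinase, was at 992, 993 and 1017 CPM in WT and 3184, 3123 and 3302 CPM in CD47- cells (1.68, SE 0.0284, adjusted p = 8.97e-09). Cyclin D2 (CCND2) was at 1.59, 1.64 and 1.41 CPM against 19.2, 21.1 and 18.8 CPM (3.67), while CCND3 was lower (−0.60). CCND1 was at 0.0429, 0.128 and 1.45 CPM against 2.91, 3.25 and 2.30 CPM (2.75, adjusted p = 0.0127), and in WT cells its high library was the one that also held THBS1. The log2 fold change of CCND1 was 5.03 without the TSP1 pair, 4.87 without its WT library, and 1.87 without the WT CD3+CD28+TSP1 library. The inhibitors CDKN2C (−1.32), CDKN1B (−1.04) and CDKN1C (−0.99) were lower and CDKN1A was higher (0.71). GADD45B, a stress-induced growth arrest gene, was at 23.3, 23.7 and 25.1 CPM against 66.0, 68.7 and 67.9 CPM (1.49) after 0.23 at 1 h.

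The MYC family was higher in CD47- cells, with a larger fold for MYCN and MYCL than for MYC. MYC was at 82.1, 81.5 and 83.2 CPM in WT and 173, 178 and 171 CPM in CD47- cells (1.08, SE 0.0377, adjusted p = 1.9e-07). MYCN (chromosome 2, 15940550 to 15947007) was at 0.558, 0.543 and 0.782 CPM, or 13, 17 and 20 counts, against 13.4, 11.99 and 13.4 CPM (4.36, SE 0.147, adjusted p = 1.63e-07). MYCL was at 2.58, 2.04 and 2.62 CPM against 12.8, 11.8 and 13.7 CPM (2.405, SE 0.106, adjusted p = 6.37e-07). The groups did not overlap for any of these genes. MYCN differed by more at 6 h than at 1 h (3.26) and 3 h (3.54), with an interaction of 0.96 (adjusted p = 0.0119) that was not called with the term for mesenchymal transcripts or without the WT CD3+CD28+TSP1 library, while the interactions of MYC and MYCL were not called. In the wider MYC network 7 of 12 genes were higher and 2 lower. MAX, the common partner, was higher by 0.12, and MXD3 and MXD4, which compete with MYC for MAX, were lower by 1.67 and 0.37.

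Ribosome biogenesis, a process that MYC is known to drive, was higher by less than 2-fold for each gene called higher. Of 37 genes 34 were higher and 1 was lower, with a range from −0.10 to 0.92 and medians of 0.41 at 6 h, 0.20 at 1 h and 0.24 at 3 h. NOP56, of the snoRNP that methylates rRNA, was at 347, 327 and 341 CPM in WT and 568, 564 and 557 CPM in CD47- cells (0.73). POLR1B, a subunit of RNA polymerase I, was at 73.0, 67.8 and 75.7 CPM against 126, 128 and 130 CPM (0.83). NHP2 was lower by 0.10, and UBTF (−0.08) and RRS1 (0.12) were not called. The interaction was called higher for 13 of these genes and lower for none, and for 1 with the term for mesenchymal transcripts. The E-box CACGTG, which MYC and several other factors bind, occurred in the 300-base window of 9 of 30 of them (30%) against 1087 of all 10773 (10.1%). Of 80 genes of the ribosomal proteins themselves 19 were higher and 26 lower, with a median of −0.03.

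**Figure D4:**
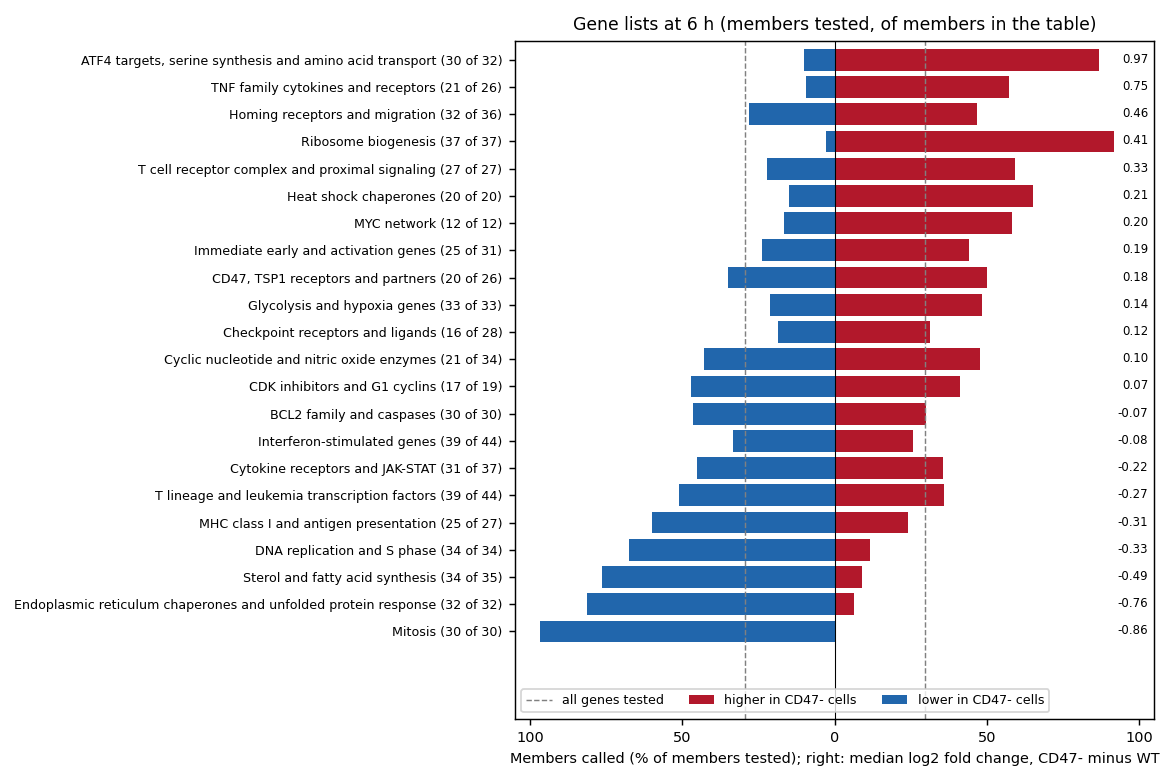
Percent of the tested members of each gene list called higher (red, to the right) or lower (blue, to the left) in CD47- cells at 6 h, with the numbers tested and in the table in brackets and the median log2 fold change at the right edge. Dashed lines mark the shares over all genes tested, 29.7% higher and 29.3% lower. Of the lists drawn, mitosis and endoplasmic reticulum genes have the lowest medians and amino acid genes the highest. The share called higher is larger for ribosome biogenesis (34 of 37) than for amino acid genes (26 of 30). Cancer-testis antigens, of which 14 of 42 were tested, are not drawn.

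Chains of the T cell receptor complex differed in both directions, most of all the alpha chain constant region. TRAC was at 138, 142 and 120 CPM in WT and 16.8, 15.3 and 14.8 CPM in CD47- cells (−3.09, SE 0.0484, adjusted p = 6.8e-09), whereas TRBC1 and TRBC2 of the beta chain were lower by 0.29 and 0.52. CD3D, CD3E and CD3G were higher by 0.49, 0.36 and 0.35, and CD247, the zeta chain, was lower by 0.12. CD28, the costimulatory receptor that one of the coated antibodies binds, was at 53.7, 60.7 and 52.4 CPM against 212, 213 and 216 CPM (1.94, SE 0.0508, adjusted p = 4.62e-08). Its difference had been 3.16 at 1 h, when WT cells were at 25.0 to 27.1 CPM on the scale of all libraries. Of 27 genes of the receptor complex and its proximal signaling 16 were higher and 6 were lower, with a median of 0.33. The kinase ZAP70 (−0.75) and the phosphatase CD45 (PTPRC, −0.92) were among the lower, and the adaptors GRAP2 (1.37) and LAT (0.52) among the higher. LCK was not called.

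Transcription factors of the T lineage differed in both directions, 14 higher and 20 lower of 39, with a median of −0.27. IKZF3 (Aiolos) was at 36.03, 43.4 and 34.7 CPM in WT and 1.39, 2.12 and 1.91 CPM in CD47- cells (−4.39). HOXA10 was at 2.32, 2.14 and 2.31 CPM in WT and had 0 to 1 count in each CD47- library. PTCRA, which encodes the pre-T cell receptor alpha chain, was lower by 2.89, and the thymic regulators SATB1, TCF12 and TCF7 by 1.05, 0.82 and 0.68. On the higher side were LYL1 (4.02), TBX21 (2.19), which encodes the Th1 factor T-bet, and RUNX3 (1.51). GATA3 (0.77) and NOTCH1 (0.38) were higher by less.

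Ligands and receptors of the TNF family were more often higher than lower, 12 against 2 of 21, with a median of 0.75. Besides TNF, lymphotoxin alpha (LTA) was at 1.29, 1.501 and 1.56 CPM in WT and 5.26, 6.17 and 5.68 CPM in CD47- cells (1.97). LTA lies next to TNF on chromosome 6, and its interaction was 1.14 (adjusted p = 0.0204), not called with the term for mesenchymal transcripts or when any of 4 libraries at 6 h was left out. The death receptor gene TNFRSF10A was higher by 2.70, TNFSF14 (LIGHT) by 2.30 and TNFSF10 (TRAIL) by 1.46, while FAS was lower by 0.44 and TNFSF8 by 1.72. Of 30 BCL2 family and caspase genes 9 were higher and 14 lower, and 5 were higher when the CD3+CD28 or the TSP1 pair was left out. The pro-apoptotic BH3-only genes BBC3 and PMAIP1 were higher by 0.99 and 1.02, BMF was lower by 1.15, and CASP1, the inflammasome protease, was at 7.32, 6.80 and 6.19 CPM against 1.44, 1.20 and 1.52 CPM (−2.29).

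Surface receptors for cytokines, chemokines and adhesion showed gains and losses side by side. Of 31 cytokine receptor and JAK-STAT genes 11 were higher and 14 lower. STAT5A, which carries interleukin-2 and interleukin-7 signals, was at 16.5, 16.1 and 13.2 CPM in WT and 90.1, 87.4 and 83.1 CPM in CD47- cells (2.51), and the receptor chains IL2RB (2.39) and IL4R (2.34) were higher while IL10RA was lower (−1.74). Of 32 homing genes 15 were higher and 9 lower. The integrin ITGA1 was at 9.59, 9.15 and 8.53 CPM against 70.2, 66.2 and 69.5 CPM (2.92). CXCR3, CCR4 and the exit receptor S1PR1 were higher by 2.36, 2.53 and 1.58, and CXCR4 and CCR8 were lower by 1.16 and 3.08. PREX2, the paralog of PREX1, was at 31.3, 34.5 and 27.7 CPM in WT and 0.956, 0.281 and 0.563 CPM in CD47- cells (−5.71), the opposite direction to PREX1. PREX2 passed the low-count filter only through the WT libraries, so its direction was set by the filter. Of 16 checkpoint genes 5 were higher and 3 lower. These counts include NECTIN2, which passed the low-count filter only through the CD47- libraries, and CD86, which passed only through the WT libraries. The directions of both were set by the filter. NECTIN2, a ligand of TIGIT and CD226, was at 0.429, 0.319 and 0.235 CPM against 5.65, 6.13 and 5.68 CPM (4.15), CD226 at 107, 114 and 101 CPM against 365, 355 and 374 CPM (1.77), and CD274 (PD-L1) was lower by 1.38.

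Partners of CD47 and TSP1 were 10 higher and 7 lower of 20. The laminin and TSP1 binding integrin ITGA6 was at 16.02, 14.8 and 14.3 CPM in WT and 211, 207 and 218 CPM in CD47- cells (3.82, SE 0.0501, adjusted p = 2.98e-09). Its difference at 6 h exceeded the earlier ones, with an interaction of 1.03 (adjusted p = 9.35e-06). SIRPG, a T cell receptor for CD47, was at 6.05, 5.24 and 5.75 CPM against 26.9, 25.7 and 25.0 CPM (2.19). SIRPA had 0, 0 and 1 count in WT libraries and was at 1.15, 0.601 and 0.633 CPM in CD47- cells. It passed the low-count filter only through the CD47- libraries, so its direction was set by the filter, and the 10 higher genes include it. The integrin ITGA4 was lower by 1.48, and ITGB1, the beta chain of most TSP1 binding integrins, by 0.49. Of 21 genes of cyclic nucleotide and nitric oxide signaling, through which TSP1 acts in vascular cells, 10 were higher and 9 lower. The guanylate cyclase subunit GUCY1A1 was at 27.2, 25.2 and 25.2 CPM against 5.31, 6.43 and 5.41 CPM (−2.18), the adenosine receptor ADORA2A at 31.9, 31.7 and 28.4 CPM against 4.07, 3.37 and 3.98 CPM (−3.01), and the adenylate cyclase ADCY1 at 1.98, 2.62 and 2.03 CPM against 26.6, 27.8 and 25.3 CPM (3.58).

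An enzyme of sterol synthesis was nearly absent from CD47- cells. CYP51A1 (chromosome 7, 92084987 to 92134803), lanosterol demethylase, was at 36.5, 39.7 and 35.7 CPM in WT cells, or 849, 1243 and 912 counts, and had 2, 2 and 6 counts in CD47- cells. CYP51A1 passed the low-count filter only through the WT libraries, so its direction was set by the filter. The fitted log2 fold change was −8.00 (SE 0.201), and it was −7.07 at 1 h and −7.39 at 3 h. With so few counts the value at 6 h ranged from −8.76 without the TSP1 pair to −7.66 without the CD3+CD28+TSP1 pair. Of 34 genes of sterol and fatty acid synthesis 26 were lower and 3 higher, with a median of −0.49 at 6 h against −0.86 at 1 h and −0.57 at 3 h. HMGCS1, which commits acetyl units to the pathway, was at 507, 506 and 468 CPM against 135, 139 and 140 CPM (−1.84), and SQLE and IDI1, of later steps, were lower by 0.75 and 1.15. FASN (0.35) and ELOVL6 (0.59), of fatty acid synthesis, and PMVK (0.51) were higher.

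Antigen presentation by MHC class I was lower in part, 15 lower and 6 higher of 25. B2M (chromosome 15, 44711358 to 44718851), the light chain shared by all class I molecules, was at 661, 670 and 680 CPM in WT and 277, 277 and 308 CPM in CD47- cells (−1.22). HLA-B was at 114, 123 and 114 CPM against 42.6, 44.3 and 45.4 CPM (−1.41) and HLA-C was lower by 0.50. Reads of these related genes can be shared by alignment, so the size of each is uncertain. The peptide trimming enzyme ERAP2 was at 120, 115 and 127 CPM against 41.0, 36.7 and 40.1 CPM (−1.62). Of 39 interferon-stimulated genes 10 were higher and 13 lower. GBP1 was at 68.0, 61.3 and 67.1 CPM against 3.17, 3.29 and 4.55 CPM (−4.16) and IFIT3 was lower by 3.45, but OAS1 was higher by 1.48 and IFITM3 by 1.28.

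Cancer-testis antigens, germline genes that many tumors express, were measured in part, since 14 of the 42 list members in the table passed the low-count filter. Several, such as MAGEB1 and MAGEA10, passed only through the CD47- libraries, so the direction over those that passed is set in part by the filter and no median is given. MAGEB1 had 1, 6 and 5 counts in WT libraries and 1020, 1088 and 1012 counts in CD47- libraries, and MAGEA10 had 0, 5 and 6 against 115, 127 and 104 counts. MAGEA9B was at 1.72, 2.30 and 1.84 CPM against 127, 116 and 130 CPM (5.96), and PRAME was higher by 2.02. GAGE2A was lower, with 28, 27 and 13 counts in WT and 0 in each CD47- library. The MAGEA and GAGE copies are nearly identical, so counts of single copies are uncertain. Outside the lists the B cell complement receptor gene CR2 was at 1.59, 1.56 and 2.31 CPM in WT and 34.2, 34.3 and 34.5 CPM in CD47- cells (4.24), and DPYD, the enzyme that degrades pyrimidines, was at 29.4, 27.7 and 29.2 CPM against 2.69, 2.25 and 2.47 CPM (−3.54).

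Immediate early genes, which respond within minutes to receptor signals, and other activation genes were 11 higher and 6 lower of 25 at 6 h. Their median was 0.19, after −0.71 at 1 h and −0.40 at 3 h. The interaction was called higher for 14 of them and lower for 2, and with the term for mesenchymal transcripts higher for 9 and lower for 2. FOS was at 7.47, 8.53 and 4.97 CPM in WT and 24.2, 25.6 and 28.4 CPM in CD47- cells (1.91, SE 0.163, adjusted p = 2.24e-05), after −0.04 at 1 h and −0.03 at 3 h. On the scale of all libraries FOS ran from 27.8 to 97.8 CPM in WT at 1 h and from 46.6 to 55.4 CPM in CD47- cells. ATF3 was at 5.97, 6.90 and 6.45 CPM against 24.9, 23.4 and 22.9 CPM (1.88). EGR1 (−1.02), JUND (−1.42) and BTG2 (−1.71) were lower.

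Of 20 heat shock chaperone genes and their regulators, which lie in the cytosol, the mitochondria and, for HSPA5, the endoplasmic reticulum, 13 were higher and 3 lower. The lower ones were HSPA5, HSPA1B and the mitochondrial HSPE1 (−0.22). HSPA6 was at 257, 251 and 254 CPM in WT and 713, 755 and 755 CPM in CD47- cells (1.54), and its cochaperone DNAJB1 at 283, 280 and 280 CPM against 695, 712 and 693 CPM (1.32). HSPA1A was higher by 0.72 and its near-identical copy HSPA1B lower by 0.25, and these 2 share reads. The cytosolic HSP90AA1 and HSP90AB1 differed by 0.13 and 0.27. Of 33 glycolysis and hypoxia genes 16 were higher and 7 lower. Hexokinase 2 (HK2) was at 40.3, 40.4 and 39.4 CPM against 102 to 111 CPM (1.40), whereas GAPDH differed by 0.07. The peptide hormone gene ADM was higher at 6 h (1.00) after being lower at 1 h (−1.13), and CA9, an acid-regulating enzyme induced by hypoxia, was at 2.23, 2.17 and 1.56 CPM against 0.391, 0.561 and 0.824 CPM (−1.75).

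Whether the line difference at 6 h depended on the antibodies was tested as the interaction of line and activation, comparing the pairs with antibodies with the pair with TSP1 alone. TSP1 alone is 1 library per line, so the spread comes from the CD3+CD28 and CD3+CD28+TSP1 libraries taken as replicates, and the lone libraries are assumed to vary like these. A gene not called here is not shown to be independent of the antibodies. The test called 21 of 16556 genes (0.127%), 9 higher (0.0544%) and 12 lower (0.0725%), and 716 had an unadjusted p under 0.05. Among the largest were THBS1, COL1A2, MMP1 and GREM1 in one direction and copies of the signal recognition particle RNA, RN7SL390P and RN7SL692P, in the other. RN7SL390P was at 43.6, 36.4 and 0.274 CPM in WT and 0.304, 2.00 and 31.7 CPM in CD47- cells. The 3 libraries with mesenchymal transcripts are the WT library with TSP1 and both CD47- libraries with antibodies, so their presence and the interaction cannot be told apart. By DESeq2 27 genes and by limma voom 18 were called. The count was 125 without WT CD3+CD28, 86 without WT CD3+CD28+TSP1, 36 without CD47- CD3+CD28 and 45 without CD47- CD3+CD28+TSP1. Each line has a single library with TSP1 alone, so leaving that out gives no value.

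Differences between the lines were uneven along the genome. On chromosome 15 48.9% of 577 tested genes were lower in CD47- cells and 16.1% higher, with a median of −0.25. On the X chromosome 43.4% of 548 were lower and 20.3% higher, with a median of −0.21. On chromosome 9 38.5% of 641 were higher and 21.1% lower, with a median of 0.11, and on chromosome 19 36.9% were higher and 17.3% lower. Windows of 10 Mb gave more extreme shares. Between positions 10000001 and 20000000 of the X chromosome 79.5% of 39 genes were lower, with a median of −0.65, and between 40000001 and 50000000 72.2% of 72 were lower, but between 150000001 and 160000000 44.8% of 87 genes were higher and 12.6% lower, with a median of 0.19. On chromosome 9 between 130000001 and 140000000 61.9% of 118 genes were higher, with a median of 0.36. B2M, CCNB2 and NUSAP1 lie on chromosome 15, where lower calls were more frequent than the 29.3% over all genes. RNA levels alone do not give gene copy number, and DNA was not measured.

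**Figure D5:**
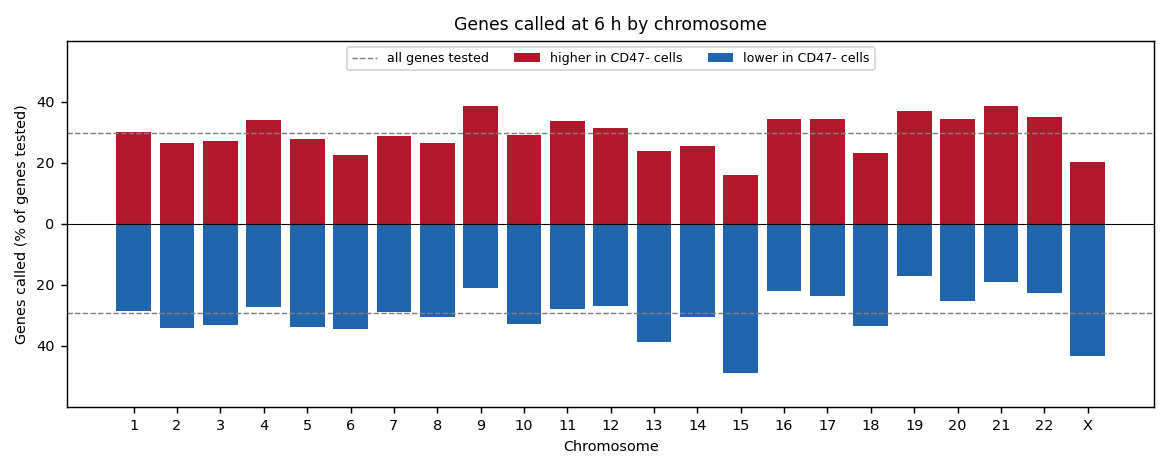
Percent of tested genes called higher (red) or lower (blue) in CD47- cells at 6 h on each chromosome, with dashed lines at the shares over all genes tested. Chromosome 15 and the X chromosome have the most lower calls, 48.9% and 43.4%, and chromosomes 21 and 9 the most higher calls, 38.7% and 38.5%.

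Against the earlier time points, 15679 genes were tested at all 3 times and in the interaction, and 9464 of these were called at 6 h. Between the lines 7487 of 16429 genes were called at 1 h (45.6%) and 4481 of 16804 at 3 h (26.7%), with 8 libraries at 1 h and 6 at 3 h. Of the 9464 genes 3106 were called with the same sign at all 3 times, among them CD47, TNF, RAG1, MYC, MYCN and CYP51A1. The interaction was called for 2163 of the 9464 genes, with the same sign as the 6 h difference for 1830 and the opposite sign for 333. Of the 1830 genes 497 had the opposite sign at both 1 h and 3 h, as HSPA5 and XBP1 did. At 6 h and 1 h 363 genes were called in opposite directions.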

How the data were processed

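Poly(A) RNA of WT Jurkat and CD47- JinB8 cells was sequenced in 20 libraries, with 1 library for each line, treatment and time point. The authors used Cutadapt 1.18 for trimming, STAR 2.4.2a with repeated passes for alignment to GRCh38, and RSEM 1.3.3 with GENCODE 36 for counting per gene. The strand setting is not given in the sources used here, so reads of overlapping antisense genes may not be told apart. The deposited table holds expected counts, not normalized by depth or length. It has 2 columns of no sample, which were not used.

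Expected counts were rounded for edgeR 4.0.16 and DESeq2 1.42.0 and left unrounded for limma 3.58.1 (voom with quantile normalization), in R 4.3.3 with the data.table package at version 1.17.8. Genes were kept by filterByExpr (minimum count 10, minimum total 15), libraries were scaled by TMM, and the edgeR quasi-likelihood test used the 6 libraries at 6 h with terms for treatment and line, so that treatment paired the libraries. The pairing comes from the labels, since each treatment was given to both lines. Interactions with time used all 20 libraries and the interaction with activation the 6. Adjusted p-values are by Benjamini-Hochberg over all genes tested. Depth per library is given in the results, and the limit of 3 counts covers counting error only. Positions are from GENCODE 44, in which 16495 of 16556 tested genes were found by identifier, and promoters from RefSeq (GRCh38.p14), which held 10773 of them. Tests were checked on simulated data with the means and sizes of these libraries and 16556 genes. In each run 67 genes were changed 1.5-fold, 67 were changed 2-fold and 66 were changed 4-fold, all with a mean of at least 10 counts. For the comparison of the lines at 6 h 67.2% of genes changed 1.5-fold, 80.6% of those changed 2-fold and 95.5% of those changed 4-fold were recovered. For the interaction with time, over 16327 genes, these shares were 47.8%, 80.6% and 90.9%, and for the interaction with activation 34.3%, 53.7% and 80.3%. Of the genes left unchanged, 13 were called in the comparison of the lines and 5 in each interaction. Far fewer genes were changed there than were called in the data at 6 h or over time. The shares recovered therefore need not hold for these comparisons.

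The named genes were those the study names for Jurkat cells, the 10 higher and the 10 lower genes with the largest change among called genes with at least 1 CPM in each of the 6 libraries, the 5 higher and the 5 lower called genes with the highest mean among those changed at least 2-fold, up to 4 called genes per list, and the 5 genes with the smallest p in each direction of each interaction. The comparison, the gene lists and this rule were chosen with earlier results of these data known. The list of endoplasmic reticulum genes, the term for libraries with mesenchymal transcripts, further list members given by their log2 fold change, and ASNS, CHAC1, ATF4, PHGDH and TRIB3 were chosen after values had been seen. Alternatives were DESeq2, limma voom, other scalings and low-count filters, a model of all 20 libraries, no treatment term, and libraries or pairs left out. Each library and each pair was left out for the comparison at 6 h. For the interaction with time each library at 6 h was left out. The CD47- CD3+CD28+TSP1 library at 3 h was also left out, which was not planned, and no other earlier library was. For the interaction with activation only libraries with antibodies were left out. The batch that the study corrected for is not named in the sources used here, and that step was not repeated. Results for some genes that the rule selects are not reported here.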

Additional observations from a re-analysis of the deposited data

Results flagged for a closer look

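Groups of 3 libraries are too small to test for outlying samples, so the results here are differences between the effect at 6 h and another effect. The line difference at 6 h differed from that at 1 h and 3 h for 2667 genes by the edgeR interaction test. Of 157 named genes tested in it 84 were called, of which 31 were not called with a term for the 9 libraries high in mesenchymal transcripts. The interactions below 0 with a size of at least 1 on the log2 scale were, in the folding machinery of the endoplasmic reticulum, HSP90B1 (−2.35), HSPA5 (−2.29), XBP1 (−1.94), SDF2L1 (−1.92), PDIA4 (−1.72), MANF (−1.70), HYOU1 (−1.35), DNAJC3 (−1.27), PDIA6 (−1.15), CRELD2 (−1.11), SEL1L (−1.08) and PDIA3 (−1.004). Others below 0 were CA9 (−1.80), MID1 (−1.40), SCN7A (−1.25), CCNB2 (−1.16) and IKZF3 (−1.15).

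Interactions above 0 included amino acid supply, with SLC7A11 (2.72), SLC6A9 (2.56), CHAC1 (1.85), GPT2 (1.83), SLC1A5 (1.66), STC2 (1.58), PSAT1 (1.44), MTHFD2 (1.36), CBS (1.304), ASNS (1.26) and PHGDH (1.16). The others were FOS (2.14), ADM (2.04), HRK (1.97), BCL2A1 (1.87), ATF3 (1.56), CCND2 (1.23), GADD45B (1.15), LTA (1.14) and ITGA6 (1.03), and the signal recognition particle RNA copies RN7SL692P (3.98) and RN7SL128P (2.22). With a library left out RN7SL128P ranged from 1.37 to 2.87 and RN7SL692P from 3.31 to 4.42. HRK and BCL2A1 were under 1.5 CPM in every library at 6 h, so their values rest on few counts. The other 45 called named genes lay between −0.96 and 0.96.

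The edgeR test of the interaction of line and antibodies at 6 h rests on 1 library per line without antibodies. It called 21 genes, and 36 to 125 when 1 of the libraries with antibodies was left out. Among the 9 above 0 were COL1A2 (16.1), GREM1 (11.5), BLOC1S5-TXNDC5 (10.1), THBS1 (9.47) and MMP1 (9.05). Among the 12 below 0 were RN7SL390P (−11.9), RN7SL692P (−6.62), RN7SL128P (−4.57), MAGED4 (−2.55) and RN7SL4P (−0.91). Some of these genes had no counts in 1 or more libraries, and their fitted values then depend on the prior count and give no bound. The RN7SL copies share reads with each other, MAGED4 with MAGED4B and BLOC1S5-TXNDC5 with TXNDC5, so these values are uncertain. The same split of the libraries is that of the mesenchymal transcripts, and both cannot be told apart in 6 libraries.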

How the results depend on the processing

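The comparison of the lines at 6 h called 9768 genes in the paired analysis with treatment as a replicate block and 9867 without the block, 9573 of them in both. No named gene called in the 3 comparisons had the opposite sign in another setting. RN7SL128P, which was not called at 6 h (−0.13), was called at 0.78 with the term for mesenchymal transcripts and at −1.59 without the TSP1 pair. At 6 h 12 named genes changed sign without being called in either setting, and with a library or pair left out RN7SL390P ranged from −5.08 to 0.14, RN7SL692P from −3.23 to 0.26, MMP1 from −0.69 to 4.57, COL1A2 from −0.11 to 8.17, GREM1 from −0.145 to 4.14, CCND1, which stayed called, from 1.87 to 5.03, MAGED4 from −0.098 to 1.27 and BLOC1S5-TXNDC5 from −2.14 to 0.11. The called list counts that a left-out library or pair moved by more than 1.5 times were higher BCL2 family and caspase genes (5 to 9) and higher DNA replication genes (1 to 4), and also the lower counts of the MYC network (1 to 2) and ribosome biogenesis (0 to 1) and the higher count of the endoplasmic reticulum list (1 to 2). Other settings gave between 7627 (DESeq2) and 10414 (no low-count filter) calls, and leaving out a library or pair gave 8399 to 9415 (higher 4164 to 4749, lower 4235 to 4709). Upper-quartile factors and library totals alone moved the median of all genes by less than 0.1 and the share of higher calls from 50.3% to 55.9% and 55.4%. Of 2877 values of named genes under other settings 25 lost their call. The difference against earlier times called 2667 genes and 1767 against 3 h alone (lower 1021). Leaving out 1 library at 6 h, or the CD47- CD3+CD28+TSP1 library at 3 h, gave 1369 to 3935 (higher 495 to 1496, lower 801 to 2439). The other libraries at 1 h and 3 h were not left out, so their weight is not known. Of 2041 values of named genes under other settings 163 lost their call. With a term for the 9 libraries high in mesenchymal transcripts it called 682 genes (237 higher, 445 lower), and 31 of 84 named genes lost their call. The interaction with activation called 21 genes and 232 with no low-count filter (84 higher, 148 lower). With 1 of the libraries with antibodies left out it called 36 to 125 (higher 10 to 52, lower 26 to 73). The causes were not tested. With 1 library per line and treatment, effects of TSP1 within a line at 6 h were not tested.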
